A study of Homo sapiens with 6 samples.

Results

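The 30 genes described here encode enzymes of cholesterol synthesis, the sterol-sensing machinery that controls them, and proteins of sterol uptake, transport and storage. They were taken by gene symbol from the 26255 symbols listed for each library, and were chosen with earlier results of these data known. All 30 were found, and all 30 passed the filter on low values that left 12213 genes for testing, a mean of at least 1 FPKM over the 6 libraries. FPKM is the number of fragments mapped to a gene, scaled to the length of its transcript in kilobases and to the size of the library, so that levels of different genes can be set side by side per length.

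Messenger RNA had been sequenced from HCT116, an established human colorectal carcinoma line, in 3 libraries from ZsGreen-positive and 3 from ZsGreen-negative cells. The series title concerns colorectal cancer cells given the degron of ornithine decarboxylase, as a way to enrich cells for cancer stem cell models. Fused to the fluorescent protein ZsGreen, this degron is known to direct it to ubiquitin-independent degradation, and cells that degrade it slowly glow. The labels name HCT116 for both groups and give no treatment, passage or sorting step; they do not say whether either group was a clone or whether the ZsGreen-negative cells carried the reporter. No label states that a group's libraries came from separate cultures, and the p-values then cover no more than the variation among 6 libraries, which may be technical.

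Cholesterol is built from acetyl-CoA through the mevalonate pathway, which makes isoprenoid units, and the sterol pathway, which joins them into squalene and shapes squalene into sterol. When membranes of the endoplasmic reticulum are poor in sterol, the escort protein SCAP carries the transcription factors SREBP-1 and SREBP-2 to the Golgi, where they are cut and freed to switch on the genes of synthesis and uptake. When sterol is plentiful, the INSIG proteins hold SCAP back in the endoplasmic reticulum. Oxidised sterols also activate the LXR nuclear receptors, which promote export and limit uptake. Rapidly growing tumour cells need sterol and isoprenoids for membranes and for anchoring signalling proteins.

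The summed FPKM of a library was 1468240 to 1767780 in ZsGreen-positive and 1814650 to 1840480 in ZsGreen-negative libraries (two-sided exact permutation p = 0.1, below which groups of 3 cannot go). In genes with a single annotated transcript, low values clustered at what a single fragment is worth, which put the depth at about 12000000 fragments in ZsGreen-positive replicate 1 and between 9320000 and 9570000 in each ZsGreen-negative library. At that depth 1 FPKM on a transcript of 1 kilobase stands for 12 fragments in ZsGreen-positive replicate 1 and for between 9.32 and 9.57 in each ZsGreen-negative library. ZsGreen-positive replicates 2 and 3 stood apart, with no such cluster. Of the single-transcript genes above 0, those whose FPKM multiplied by length in kilobases was under 0.25 made up 17.2%, 3.59% and 2.40% in ZsGreen-positive libraries 1 to 3, and between 17.7% and 20.1% in each ZsGreen-negative library. Genes of small RNAs held 67.2% ± 1.14 of the summed FPKM in ZsGreen-positive and 67.7% ± 0.260 in ZsGreen-negative libraries (SD, n = 3 each). The 10 most abundant genes held 46.3% ± 1.02 of it in ZsGreen-positive and 57.2% ± 0.277 in ZsGreen-negative libraries, and 10314 to 11989 genes were listed at 0 in ZsGreen-positive and 8985 to 9162 in ZsGreen-negative libraries (two-sided exact permutation p = 0.1 for each). Their part in the results was not tested. The median log2 fold change of the genes described here is therefore also given without ZsGreen-positive replicates 2 and 3. Of 8 epithelial markers, 6 were tested, and their list summed to 3228 to 3670 FPKM in ZsGreen-positive and 4353 to 4420 FPKM in ZsGreen-negative libraries. Of the 6, 4 were lower and 1 higher in ZsGreen-positive libraries, where 30.0% of all tested genes were lower and 29.4% higher. CDH1 fell most, with a mean of 17.4 FPKM in ZsGreen-positive and 49.8 FPKM in ZsGreen-negative libraries. The epithelial markers CEACAM5 and CEACAM6 were listed at or near 0. The 6 fibroblast, 6 blood, 4 endothelial and 4 hepatocyte markers summed to at most 1.19, 1.53, 0.310 and 1.41 FPKM in any ZsGreen-positive library, and to at most 2.50, 2.22, 0.142 and 1.76 FPKM in any ZsGreen-negative library.

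Most genes of cholesterol synthesis were lower in ZsGreen-positive cells. The test was passed by 22 genes that fell and 4 that rose, and the other 4 missed it (limma on log2(FPKM + 1), Benjamini-Hochberg adjusted p under 0.05 over all 12213 genes). The count that rose was 2 without ZsGreen-positive replicate 1, without ZsGreen-negative replicate 1 or without ZsGreen-negative replicate 2. Among all tested genes 30.0% were lower, 29.4% were higher and 59.4% passed in either direction. The falls were led by INSIG1, MSMO1, CYP51A1, IDI1 and INSIG2, and the mean FPKM was at least 2-fold lower for these and for MYLIP and SC5D, 7 of 30 genes, against 10.8% of all tested genes. The log2 fold change of the 30 genes had a median of -0.53, beside 0.0040 for all tested genes. For 26 of the 30 genes the libraries of the groups were fully separated, with the ZsGreen-positive ones lower in 22, where 67.6% of all tested genes did not overlap and 34.5% did so with lower ZsGreen-positive values. Bulk libraries cannot tell less RNA in every cell from fewer cells that make it.

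Summed over the 18 enzymes from ACAT2 to DHCR7, the level was 1091, 1008 and 1026 FPKM in ZsGreen-positive libraries 1 to 3, against 1976, 2007 and 1997 FPKM in ZsGreen-negative libraries 1 to 3. Every ZsGreen-positive sum lay below every ZsGreen-negative one. The 30 genes took 0.0803% ± 0.0047 of the summed FPKM in ZsGreen-positive and 0.138% ± 0.0012 in ZsGreen-negative libraries (SD, n = 3 each). With replicate 1 alone standing for the ZsGreen-positive group, the 30 genes had a median log2 fold change of -0.47. The spread in that fit came from the ZsGreen-negative libraries alone. These varied less, with a median coefficient of variation of 2.84% for the 30 genes, against 8.95% in ZsGreen-positive libraries. The number of calls in that fit is therefore not given.

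The mevalonate pathway begins with ACAT2, a thiolase that joins acetyl-CoA units, and HMGCS1, which makes HMG-CoA. ACAT2 was at 64.5, 54.9 and 53.9 FPKM in ZsGreen-positive and 77.6, 79.1 and 82.6 FPKM in ZsGreen-negative libraries (log2 fold change -0.46 ± 0.081 SE, limma adjusted p = 0.00199). HMGCS1 was at 38.4, 48.7 and 41.5 FPKM in ZsGreen-positive and 71.4, 74.0 and 72.8 FPKM in ZsGreen-negative libraries (log2 fold change -0.76 ± 0.090, limma adjusted p = 0.000304). Both fell with no overlap between the groups.

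The kinases further along the pathway did not share this direction. MVK, mevalonate kinase, rose, with 27.4, 24.5 and 25.9 FPKM in ZsGreen-positive and 17.9, 18.9 and 19.0 FPKM in ZsGreen-negative libraries (log2 fold change 0.46 ± 0.072, limma adjusted p = 0.00121). PMVK, the kinase of phosphomevalonate and the gene of the lowest mean level among the 30, had 8.32, 5.47 and 3.88 FPKM in ZsGreen-positive and 2.84, 3.77 and 3.70 FPKM in ZsGreen-negative libraries. It did not pass (log2 fold change 0.59 ± 0.24, limma adjusted p = 0.0647). Without ZsGreen-positive replicate 3, whose value lies closest to the ZsGreen-negative ones, PMVK passed at an adjusted p of 0.0128. It missed the threshold without any other single library (limma adjusted p = 0.104 to 0.185). MVD, which removes a carboxyl group from mevalonate diphosphate, fell modestly, to 76.3 ± 7.52 FPKM in ZsGreen-positive cells against 99.2 ± 1.93 FPKM in ZsGreen-negative cells (SD, n = 3 each).

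IDI1, the isomerase that interconverts the building blocks of all isoprenoids, fell most among the mevalonate enzymes. Its FPKM was 69.7, 76.7 and 70.3 in ZsGreen-positive and 194, 195 and 187 in ZsGreen-negative libraries, a mean 2.66-fold lower in ZsGreen-positive cells (log2 fold change -1.40 ± 0.059, limma adjusted p = 2.8e-06). FDPS, farnesyl diphosphate synthase, was at 173, 132 and 147 FPKM in ZsGreen-positive and 249.9, 253 and 261 FPKM in ZsGreen-negative libraries (log2 fold change -0.77 ± 0.097, limma adjusted p = 0.000413). The ratio of IDI1 to MVK was 2.80 ± 0.300 in ZsGreen-positive and 10.4 ± 0.495 in ZsGreen-negative libraries (SD, n = 3 each). Of the 7 mevalonate enzymes, 5 fell, 1 rose and 1 did not pass, where 30.0% of all tested genes were lower and 29.4% higher.

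**Figure D1:**
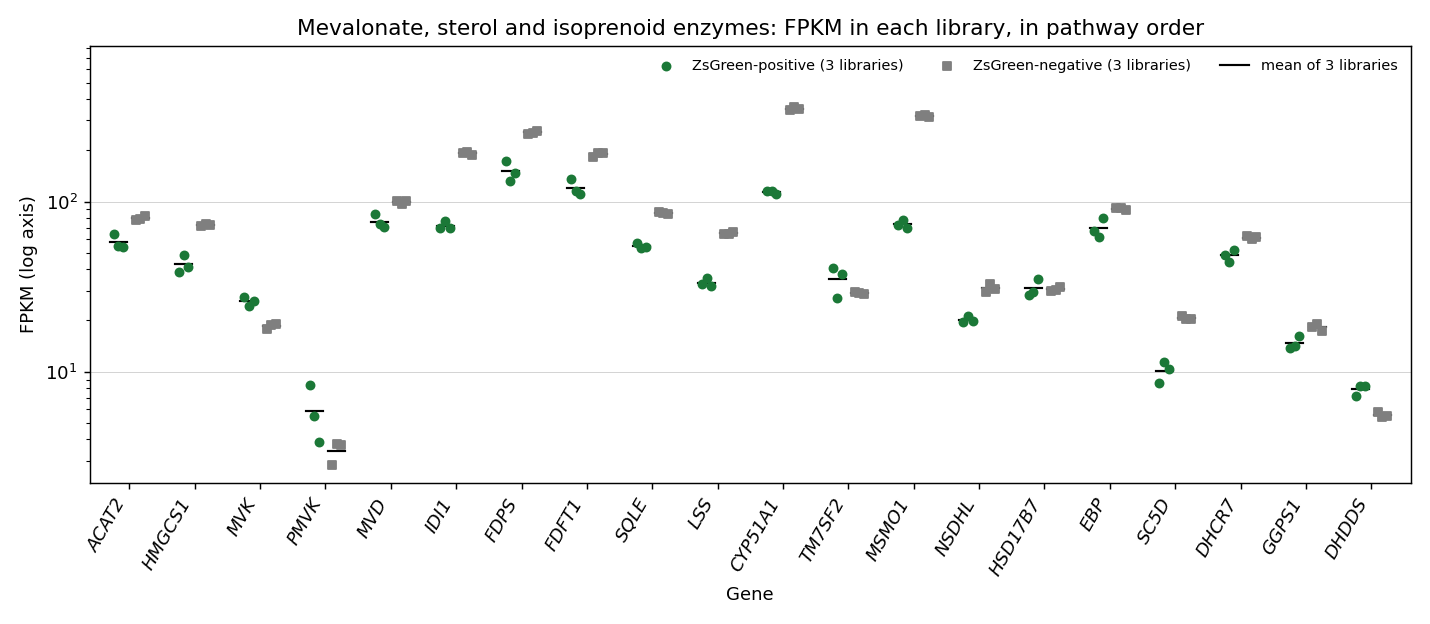
FPKM (log axis) of the 20 enzymes in pathway order from left to right, with the isoprenoid branch last; each point is a library, green circles ZsGreen-positive and grey squares ZsGreen-negative, and each bar the mean of 3 libraries. CYP51A1, MSMO1 and IDI1 show the widest gaps, MVK and DHDDS lie higher in ZsGreen-positive libraries, and the points of TM7SF2 and HSD17B7 overlap.

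Past farnesyl diphosphate, FDFT1 (squalene synthase) commits carbon to sterols, SQLE (squalene epoxidase) adds oxygen and LSS (lanosterol synthase) closes the rings. FDFT1 averaged 120.5 ± 13.3 FPKM in ZsGreen-positive and 189.9 ± 5.56 FPKM in ZsGreen-negative cells, SQLE 54.9 ± 1.61 and 85.8 ± 1.17 FPKM, and LSS 33.4 ± 1.796 and 65.2 ± 1.09 FPKM, in the same order of groups (SD, n = 3 each). All 3 fell, with log2 fold changes of -0.66, -0.63 and -0.95.

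The largest falls of the pathway came in the demethylation of lanosterol. CYP51A1, the cytochrome P450 that removes the first methyl group, was at 115, 116 and 111 FPKM in ZsGreen-positive and 347, 358 and 349 FPKM in ZsGreen-negative libraries. Its mean was 3.08-fold lower in ZsGreen-positive cells (log2 fold change -1.61 ± 0.049, limma adjusted p = 8.66e-07). MSMO1, the methylsterol oxidase that starts removal of the next pair of methyl groups, was at 72.8, 77.7 and 69.9 FPKM in ZsGreen-positive and 316, 322 and 316 FPKM in ZsGreen-negative libraries. This is a mean 4.33-fold lower in ZsGreen-positive cells (log2 fold change -2.10 ± 0.058, limma adjusted p = 5.24e-07). Of the summed FPKM of the 18 enzymes, MSMO1 held 7.06% ± 0.563 in ZsGreen-positive and 15.9% ± 0.114 in ZsGreen-negative libraries, and CYP51A1 10.95% ± 0.508 and 17.6% ± 0.192. In ZsGreen-negative cells CYP51A1 and MSMO1 ranked 1 and 2 by mean level among the 30 genes. In ZsGreen-positive cells they ranked 3 and 5, behind FDPS and FDFT1.

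The other enzymes of lanosterol demethylation moved less. NSDHL, a sterol dehydrogenase that acts with MSMO1, was at 19.6, 21.3 and 19.9 FPKM in ZsGreen-positive and 29.4, 32.9 and 30.7 FPKM in ZsGreen-negative libraries (log2 fold change -0.59 ± 0.074, limma adjusted p = 0.000384). HSD17B7, the ketoreductase of the same step, did not pass, with 28.4, 29.5 and 35.2 FPKM in ZsGreen-positive and 29.7, 30.1 and 31.7 FPKM in ZsGreen-negative libraries. The 95% interval of its log2 fold change ran from -0.20 to 0.24. Its close pseudogene HSD17B7P2 was listed at 4.59 to 9.50 FPKM in ZsGreen-positive and 3.54 to 4.73 FPKM in ZsGreen-negative libraries, and reads shared between them make both values uncertain. TM7SF2, a sterol reductase, was at 40.4, 27.3 and 37.7 FPKM in ZsGreen-positive and 29.5, 29.2 and 28.5 FPKM in ZsGreen-negative libraries. Only ZsGreen-positive replicate 2 lay below the ZsGreen-negative values. TM7SF2 did not pass with all libraries (log2 fold change 0.25 ± 0.14, limma adjusted p = 0.162) and passed without that library at 0.42 (adjusted p = 0.00168). It missed the threshold without any other single library (limma adjusted p = 0.251 to 0.398).

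At the end of the pathway EBP shifts a double bond, SC5D introduces another and DHCR7 reduces the last sterol intermediate. SC5D fell to 8.57, 11.5 and 10.4 FPKM in ZsGreen-positive libraries, against 21.2, 20.5 and 20.5 FPKM in ZsGreen-negative libraries (log2 fold change -0.97 ± 0.11, limma adjusted p = 0.000215). EBP was at 67.4, 62.1 and 79.5 FPKM in ZsGreen-positive and 91.6, 91.1 and 88.6 FPKM in ZsGreen-negative libraries. DHCR7 was at 48.8, 44.2 and 52.1 FPKM in ZsGreen-positive and 62.3, 60.5 and 61.5 FPKM in ZsGreen-negative libraries. Both passed with small changes (log2 fold changes -0.38 and -0.34), and both missed the threshold when every library was rescaled to the same sum (limma adjusted p = 0.112 and 0.111). Of the 11 squalene and sterol enzymes, 9 fell, 0 rose and 2 did not pass. Among all tested genes 30.0% were lower and 29.4% higher.

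The isoprenoid branch leaves the pathway before squalene. GGPS1, which makes geranylgeranyl diphosphate for protein prenylation, was at 13.8, 14.1 and 16.2 FPKM in ZsGreen-positive and 18.4, 19.1 and 17.5 FPKM in ZsGreen-negative libraries (log2 fold change -0.30 ± 0.087, limma adjusted p = 0.0195). Its call was lost without ZsGreen-negative replicate 1 (adjusted p = 0.0716) or 2 (adjusted p = 0.0877). DHDDS, a subunit of the enzyme that makes the dolichol precursor, rose, with 7.18, 8.26 and 8.29 FPKM in ZsGreen-positive and 5.82, 5.41 and 5.49 FPKM in ZsGreen-negative libraries (log2 fold change 0.44 ± 0.099, limma adjusted p = 0.00691).

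**Figure D2:**
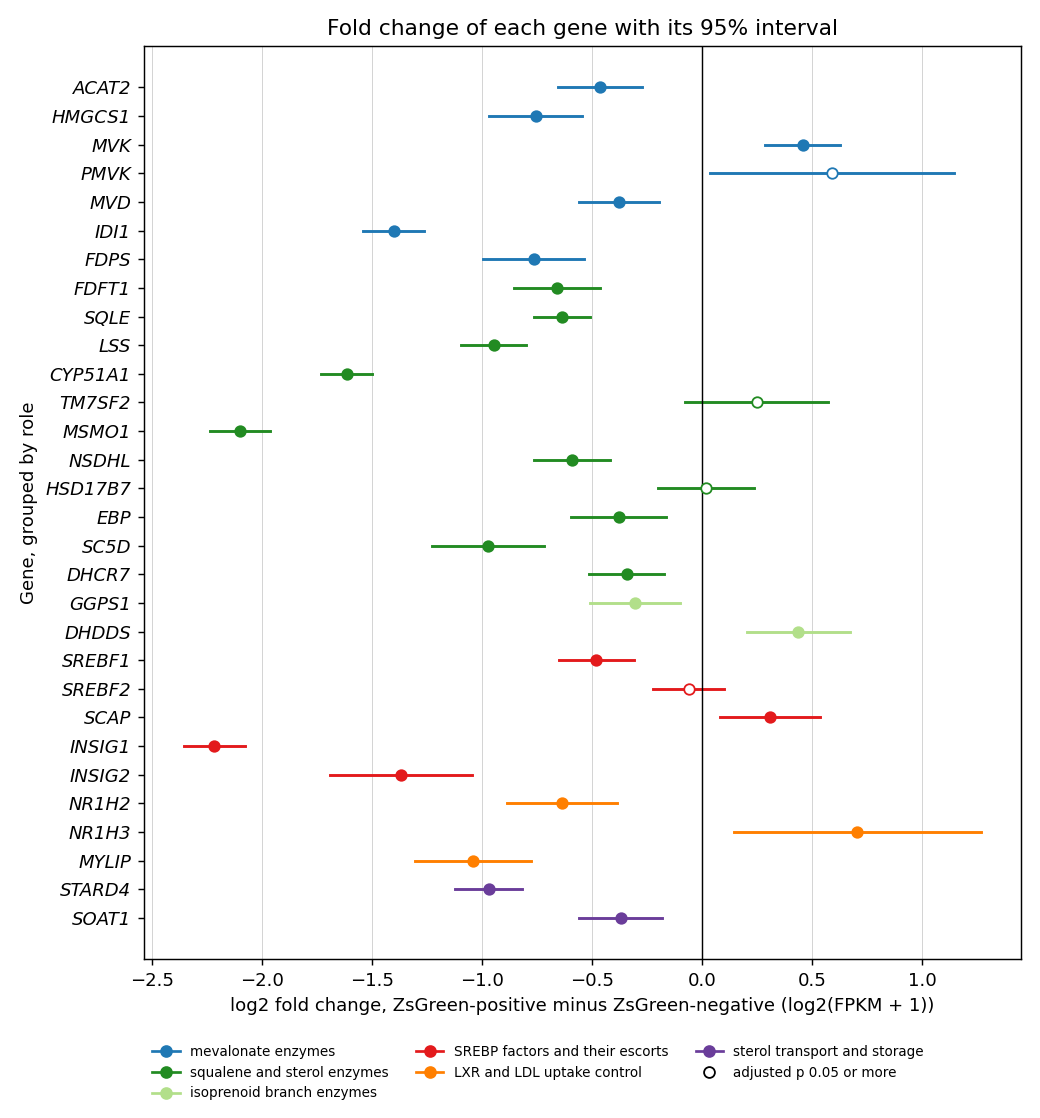
Log2 fold change (x axis, ZsGreen-positive minus ZsGreen-negative on the log2(FPKM + 1) scale) of the 30 genes, coloured by role and listed from ACAT2 at the top; lines are 95% intervals from limma and open circles genes with an adjusted p of 0.05 or more. INSIG1 at -2.22 and MSMO1 at -2.10 lie farthest to the left, and NR1H3 at 0.70 farthest to the right with a wide interval.

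Among the SREBP control genes, both INSIG genes fell by more than 2-fold, SREBF1 fell less and SREBF2 did not pass. INSIG1, which anchors SCAP in the endoplasmic reticulum and is itself a target of SREBP, was at 53.8, 50.6 and 48.7 FPKM in ZsGreen-positive and 244, 244 and 233 FPKM in ZsGreen-negative libraries. Its mean was 4.72-fold lower in ZsGreen-positive cells, the largest change among the 30 genes (log2 fold change -2.22 ± 0.059, limma adjusted p = 4.72e-07). INSIG2, its paralog, known for a weaker dependence on SREBP, was at 5.28, 6.83 and 4.59 FPKM in ZsGreen-positive and 14.6, 16.4 and 16.5 FPKM in ZsGreen-negative libraries (log2 fold change -1.37 ± 0.14, limma adjusted p = 0.000127). All 3 ZsGreen-positive values of each gene lay below all ZsGreen-negative ones. INSIG1 exceeded INSIG2 by 9.40 ± 1.73 times per length in ZsGreen-positive and by 15.3 ± 1.302 times in ZsGreen-negative libraries (SD, n = 3 each).

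SREBF2, which encodes SREBP-2, the factor most tied to cholesterol genes, was at 38.3, 38.7 and 41.8 FPKM in ZsGreen-positive and 43.6, 39.9 and 40.6 FPKM in ZsGreen-negative libraries. It did not pass (limma adjusted p = 0.462), and the 95% interval of its log2 fold change was -0.22 to 0.10. Its direction depended on the scaling, the log2 fold change being -0.06 as deposited and 0.11 once all libraries were set to the same sum. SREBF1, which encodes the SREBP-1 forms tied more to fatty acid genes, fell, with 27.0, 25.7 and 29.2 FPKM in ZsGreen-positive and 40.2, 37.0 and 38.0 FPKM in ZsGreen-negative libraries (log2 fold change -0.48 ± 0.073, limma adjusted p = 0.00103). The ratio of SREBF2 to SREBF1 was 1.42, 1.51 and 1.43 in ZsGreen-positive and 1.08, 1.08 and 1.07 in ZsGreen-negative libraries.

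SCAP, the escort, was at 17.9, 15.3 and 17.97 FPKM in ZsGreen-positive and 13.7, 12.5 and 14.5 FPKM in ZsGreen-negative libraries. It rose with all libraries (log2 fold change 0.31 ± 0.097, limma adjusted p = 0.0277). The call did not survive leaving out ZsGreen-positive replicate 1 or 3 or ZsGreen-negative replicate 1 or 2, with adjusted p-values of 0.0598, 0.0627, 0.078 and 0.115 in that order. In all, 3 of these 5 fell and 1 rose, where 30.0% of all tested genes were lower and 29.4% higher. The levels of the cleaved, active SREBP proteins are not measured by RNA.

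**Figure D3:**
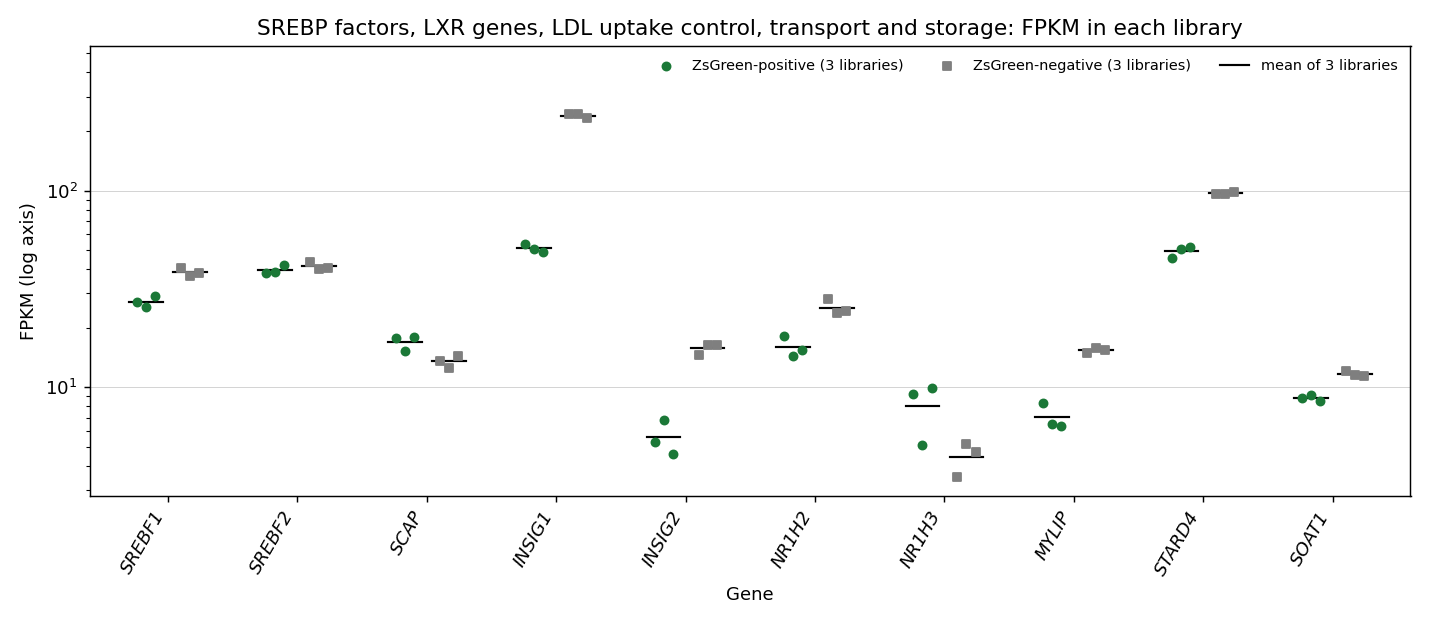
FPKM (log axis) of the 10 control, uptake, transport and storage genes; each point is a library, green circles ZsGreen-positive and grey squares ZsGreen-negative, with a bar for the mean of 3 libraries. INSIG1, INSIG2, MYLIP and STARD4 are clearly separated with the ZsGreen-positive libraries lower, and SREBF2 overlaps.

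The LXR receptor genes moved apart. NR1H2, which encodes the widely expressed LXR-beta, was at 18.2, 14.5 and 15.5 FPKM in ZsGreen-positive and 27.98, 23.9 and 24.4 FPKM in ZsGreen-negative libraries (log2 fold change -0.64 ± 0.11, limma adjusted p = 0.00157). NR1H3, which encodes LXR-alpha, was at 9.20, 5.11 and 9.87 FPKM in ZsGreen-positive and 3.48, 5.16 and 4.67 FPKM in ZsGreen-negative libraries. ZsGreen-positive replicate 2 lay inside the ZsGreen-negative range. NR1H3 passed with all 6 libraries (log2 fold change 0.70 ± 0.24, limma adjusted p = 0.0364) and in the fit without ZsGreen-positive replicate 2, but missed the threshold without each of the other 5 libraries, at an adjusted p of 0.0509 to 0.118. MYLIP, an LXR target whose product marks the LDL receptor for degradation and so limits uptake, was at 8.31, 6.47 and 6.34 FPKM in ZsGreen-positive and 15.01, 15.9 and 15.5 FPKM in ZsGreen-negative libraries (log2 fold change -1.04 ± 0.11, limma adjusted p = 0.000184).

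Transport and storage genes were lower as well. STARD4, a carrier of cholesterol between membranes and a known SREBP target, was at 45.5, 50.3 and 51.6 FPKM in ZsGreen-positive and 96.7, 96.1 and 98.4 FPKM in ZsGreen-negative libraries (log2 fold change -0.97 ± 0.065, limma adjusted p = 1.84e-05). SOAT1, which esterifies cholesterol for storage in droplets, was at 8.84, 9.11 and 8.49 FPKM in ZsGreen-positive and 12.1, 11.5 and 11.4 FPKM in ZsGreen-negative libraries. Its fall was small (log2 fold change -0.37 ± 0.080, limma adjusted p = 0.00551) and missed the threshold with every library rescaled to the same sum (adjusted p = 0.158).

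Because most of these genes moved together, the bases before their start sites are shown for the members at the low end of the fold changes and for MVK, which rose. RefSeq (GRCh38.p14) gave a window of 250 bases before the start for 27 of the 30 genes, and ACAT2, SQLE and FDFT1 were not searched. SREBP binds sterol response elements, here searched on both strands as TCACNCCAC, usually beside sites for NF-Y (CCAAT) and Sp1 (GGGCGG), and it can also bind the E-box CACGTG. Capitals mark every match to these letters on either strand. Each window runs 5′ to 3′ on the strand of its gene and ends at the base before the start. The INSIG1 window is chr7:155297628-155297877 on the plus strand, that of MSMO1 chr4:165327419-165327668 on the plus strand, that of CYP51A1 chr7:92134478-92134727 on the minus strand and that of MVK chr12:109573544-109573793 on the plus strand.
INSIG1: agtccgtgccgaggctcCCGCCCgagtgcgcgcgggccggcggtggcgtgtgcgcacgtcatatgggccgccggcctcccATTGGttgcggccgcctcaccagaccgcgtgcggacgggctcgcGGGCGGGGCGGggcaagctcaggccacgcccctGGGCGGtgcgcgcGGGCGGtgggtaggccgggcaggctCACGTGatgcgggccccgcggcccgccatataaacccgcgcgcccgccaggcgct
MSMO1: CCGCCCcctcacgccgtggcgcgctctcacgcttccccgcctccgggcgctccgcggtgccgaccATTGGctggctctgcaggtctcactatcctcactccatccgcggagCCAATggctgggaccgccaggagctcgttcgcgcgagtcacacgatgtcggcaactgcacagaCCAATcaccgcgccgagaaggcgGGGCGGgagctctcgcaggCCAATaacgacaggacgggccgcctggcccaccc
CYP51A1: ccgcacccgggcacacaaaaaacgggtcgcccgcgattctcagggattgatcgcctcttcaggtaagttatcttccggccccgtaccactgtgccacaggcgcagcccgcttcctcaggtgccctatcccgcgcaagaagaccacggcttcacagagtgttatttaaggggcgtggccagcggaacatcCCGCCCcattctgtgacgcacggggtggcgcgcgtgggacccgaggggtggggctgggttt
MVK: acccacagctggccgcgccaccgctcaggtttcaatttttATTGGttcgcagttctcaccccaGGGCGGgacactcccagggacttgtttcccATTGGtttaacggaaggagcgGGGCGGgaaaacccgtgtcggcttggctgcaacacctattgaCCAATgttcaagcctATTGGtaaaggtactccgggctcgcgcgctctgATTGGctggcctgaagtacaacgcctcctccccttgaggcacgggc
The MSMO1 window holds 4 CCAAT matches, at 185, 139, 76 and 34 bases before the start. The MVK window holds 5. The CYP51A1 window holds none, and the INSIG1 window has 1 CCAAT and 1 CACGTG match and 5 GGGCGG matches, a pair of which share a base.

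The paralogs and the SREBP genes themselves are shown next, since INSIG1 and INSIG2 fell by different amounts and SREBF1 fell while SREBF2 did not pass. The INSIG2 window is chr2:118088221-118088470 on the plus strand, that of SREBF1 chr17:17836987-17837236 on the minus strand and that of SREBF2 chr22:41832855-41833104 on the plus strand.
INSIG2: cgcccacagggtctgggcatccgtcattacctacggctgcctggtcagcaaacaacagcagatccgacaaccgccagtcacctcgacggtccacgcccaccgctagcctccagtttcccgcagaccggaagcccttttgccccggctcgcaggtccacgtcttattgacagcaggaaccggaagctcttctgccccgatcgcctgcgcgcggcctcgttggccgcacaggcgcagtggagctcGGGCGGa
SREBF1: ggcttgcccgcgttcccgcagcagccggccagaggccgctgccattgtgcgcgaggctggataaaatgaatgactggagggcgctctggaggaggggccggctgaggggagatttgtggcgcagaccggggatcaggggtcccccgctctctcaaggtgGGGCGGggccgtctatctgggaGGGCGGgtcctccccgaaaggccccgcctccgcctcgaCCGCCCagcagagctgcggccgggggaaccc
SREBF2: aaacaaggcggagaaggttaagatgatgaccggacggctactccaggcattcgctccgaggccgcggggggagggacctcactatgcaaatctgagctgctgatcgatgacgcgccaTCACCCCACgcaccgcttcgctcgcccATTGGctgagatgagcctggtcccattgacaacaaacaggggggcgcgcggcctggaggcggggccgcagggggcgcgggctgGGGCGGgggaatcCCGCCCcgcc
Among the 27 windows searched, only that of SREBF2 held a TCACNCCAC match, 133 to 125 bases before its start and followed by CCAAT on the opposite strand. Elements spelled otherwise were not searched for, so a window without this match may still hold one. INSIG2 had neither a CCAAT nor a CACGTG match, unlike INSIG1, and SREBF1 had only GGGCGG matches. Any link between the matches and the fold changes was not tested.

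Over the members, CCAAT was found in 16 of 27 windows (59.3%), against 33.0% of windows over all 27305 genes in the table. GGGCGG was found in 23 of 27 (85.2%, against 42.2% of all genes), CACGTG in 4 (14.8%, against 6.46%) and TCACNCCAC in 1 (3.70%, against 0.868%). Of the 19 genes that fell and have a window, 12 held CCAAT, and of the other 8 genes 4 did. The comparison takes in all genes, expressed in these cells or not, and a match is only a match of letters. The window of the start site farthest upstream was used where RefSeq lists several, and the start used in these cells is not known.

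Spread between libraries was wider in the ZsGreen-positive group. The coefficient of variation of the 30 genes had a median of 8.95% in ZsGreen-positive and 2.84% in ZsGreen-negative libraries and was higher in the ZsGreen-positive group for 28 of 30 genes. Over 12160 tested genes above 0 in both groups the medians were 15.1% and 5.48%, in the same order of groups, and it was higher in the ZsGreen-positive group for 87.6%. Among members it ran from 2.02% (CYP51A1) to 38.2% (PMVK) in ZsGreen-positive libraries. In ZsGreen-negative libraries it ran from 1.05% (MSMO1) to 19.4% (NR1H3).

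Related lists were read beside the 30 genes. Fatty acid synthesis was represented by 15 genes, many of them SREBP-1 targets, of which 11 fell, 1 rose and 3 did not pass, with a median log2 fold change of -0.90, where 30.0% of all tested genes were lower and 29.4% higher. SCD, the stearoyl-CoA desaturase, was at 428, 421 and 412 FPKM in ZsGreen-positive and 2038, 2041 and 1973 FPKM in ZsGreen-negative libraries (log2 fold change -2.26 ± 0.053, limma adjusted p = 2.68e-07). ME1, a cytosolic source of NADPH, averaged 11.3 ± 0.643 FPKM in ZsGreen-positive and 52.0 ± 1.28 FPKM in ZsGreen-negative cells, and ACSS2, an acetyl-CoA synthetase, 18.7 ± 3.06 and 79.3 ± 2.36 FPKM (SD, n = 3 each). A difference between the lists was not tested.

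Of 22 genes of sterol trafficking and release from lysosomes, 21 were tested, 10 fell, 4 rose and 7 did not pass (median -0.31), and the 14 that passed in either direction stand beside 59.4% of all tested genes. NCEH1, which splits cholesterol esters, was at 2.74, 4.006 and 2.78 FPKM in ZsGreen-positive and 31.9, 33.1 and 33.7 FPKM in ZsGreen-negative libraries (log2 fold change -3.03 ± 0.13, limma adjusted p = 2.68e-06). NPC1, which carries cholesterol out of the lysosome, averaged 5.92 ± 0.492 FPKM in ZsGreen-positive and 21.4 ± 0.639 FPKM in ZsGreen-negative cells, and LIPA, the lysosomal acid lipase, 27.6 ± 2.75 and 69.8 ± 1.99 FPKM.

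Of 23 genes of SREBP transport, cleavage and sterol-regulated degradation, 12 fell, 3 rose and 8 did not pass (median -0.40), and the 15 that passed in either direction stand beside 59.4% of all tested genes, with 30.0% lower. RNF145 and RNF139 encode ubiquitin ligases of the endoplasmic reticulum that act in sterol control. RNF145 was at 36.9 ± 2.59 FPKM in ZsGreen-positive and 109.9 ± 3.24 FPKM in ZsGreen-negative cells, and RNF139 at 24.2 ± 2.40 and 67.4 ± 2.27 FPKM (SD, n = 3 each). HM13, signal peptide peptidase, rose to 29.2 ± 2.18 FPKM in ZsGreen-positive cells, against 12.97 ± 0.495 FPKM in ZsGreen-negative cells.

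Among 18 genes that use isoprenoids, 6 rose, 3 fell and 9 did not pass (median -0.03), where 29.4% of all tested genes were higher and 30.0% lower. PDSS1, a subunit of the enzyme that makes the ubiquinone side chain, was at 16.2, 11.1 and 6.53 FPKM in ZsGreen-positive and 3.83, 4.03 and 3.89 FPKM in ZsGreen-negative libraries (log2 fold change 1.24 ± 0.27, limma adjusted p = 0.00579). COQ2, the next enzyme of ubiquinone synthesis, rose to 19.7 ± 4.86 FPKM in ZsGreen-positive cells, against 10.01 ± 0.514 FPKM in ZsGreen-negative cells, and ZMPSTE24, a protease of prenylated proteins, fell to 36.8 ± 3.70 against 65.1 ± 0.691 FPKM. Of 5 LXR targets, 1 rose, 2 fell and 2 did not pass, a share near the 59.4% of all tested genes that passed. ABCG1, a sterol exporter, was at 0.418 ± 0.183 FPKM in ZsGreen-positive and 2.07 ± 0.235 FPKM in ZsGreen-negative cells (SD, n = 3 each). Its ZsGreen-positive mean lies under the filter of 1 FPKM, which ABCG1 passed only through its ZsGreen-negative values. LPCAT3, a phospholipid acyltransferase, rose to 16.7 ± 1.05 FPKM in ZsGreen-positive cells, against 13.6 ± 1.304 FPKM in ZsGreen-negative cells (log2 fold change 0.28 ± 0.096, limma adjusted p = 0.0389).

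The RNA of proliferation markers moved the opposite way in the same libraries. All 10 proliferation markers rose, where 29.4% of all tested genes were higher. Their summed level was 613, 554 and 639 FPKM in ZsGreen-positive and 145, 152 and 142 FPKM in ZsGreen-negative libraries. RRM2, a subunit of ribonucleotide reductase, averaged 69.4 ± 7.60 FPKM in ZsGreen-positive and 5.07 ± 0.319 FPKM in ZsGreen-negative cells. BUB1, a spindle checkpoint kinase, averaged 22.8 ± 1.91 and 1.77 ± 0.168 FPKM, and MCM2, a subunit of the replicative helicase, 101 ± 7.79 and 11.1 ± 0.252 FPKM, in the same order of groups (SD, n = 3 each). The part of this difference in the levels of the cholesterol genes was not tested.

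The scaling between libraries shifted some calls but not those of the leading falls. NR1H3, the largest rise, missed the threshold with quantile normalization (limma adjusted p = 0.055). Once all libraries were set to a sum of 1000000, the median over all tested genes moved to 0.14 on the log2 scale, and higher genes made up 62.1% of those called, where they made up 49.5% as deposited. The 30 genes then had a median of -0.35, which is -0.49 relative to all genes, against -0.54 relative to all genes with the deposited values. Of the 30, 18 were lower and 6 higher under this rescaling, where 21.4% of all tested genes were lower and 35.1% higher. EBP, DHCR7, GGPS1 and SOAT1 missed the threshold, and PMVK and TM7SF2 passed as higher. INSIG1 was then at -2.03, MSMO1 at -1.91, CYP51A1 at -1.43 and IDI1 at -1.22.

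**Figure D4:**
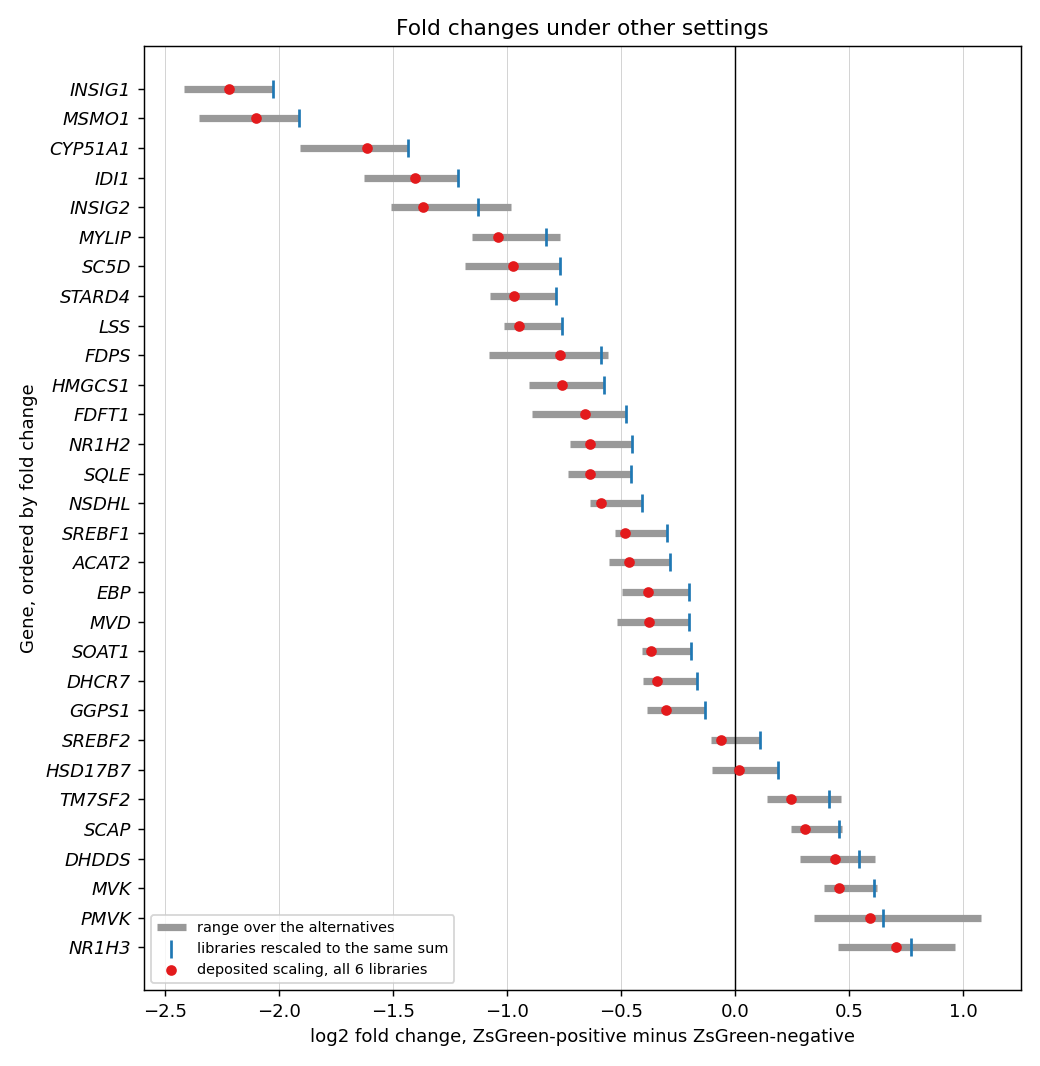
Log2 fold change (x axis) of each of the 30 genes, ordered from the largest fall at the top; red points are the deposited scaling with all 6 libraries, blue ticks the libraries rescaled to the same sum, and grey bars the range over 17 alternatives. The bars of SREBF2 and HSD17B7 cross 0, and those of the genes from INSIG1 to GGPS1 stay below 0.

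Of the 30 genes, 7 share annotated exon sequence with another gene listed at a mean of 1 FPKM or more, in GENCODE on GRCh38, a build other than that of the files. These are ACAT2 (TCP1 and SOD2), FDPS (RUSC1-AS1), GGPS1 (ARID4B and TBCE), IDI1 (IDI2-AS1), MVK (MMAB), NR1H3 (ACP2) and TM7SF2 (VPS51). The library kit keeps strand, but whether the counting used it is not given in the sources used here, so their values may hold reads of the partner gene. INSIG1, MSMO1 and CYP51A1 are not among them. CYP51A1 does overlap CYP51A1-AS1, listed at a mean of 0.294 FPKM, and AC000120.2 and AC000120.3, which have no listed values.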

How the data were processed

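Libraries from 3 ZsGreen-positive and 3 ZsGreen-negative samples of HCT116 cells were used, made from TRIzol and miRNeasy RNA with the TruSeq Stranded mRNA kit, per the labels' protocols. The authors deposited FPKM values, 1 per gene symbol and library. The submitters' processing notes name Cuffdiff 2.2.1, SAMtools 0.1.18, Bowtie2 2.2.8, TopHat2 2.1.1 and hg19, and their settings, annotation and scaling were not given in the sources used. FPKM shares a total, so abundant RNAs can shift all values. From these values, log2(FPKM + 1) was tested with limma 3.58.1 in R 4.3.3 (eBayes with a trend, two-sided, 4 residual degrees of freedom, Benjamini-Hochberg threshold 0.05) over genes with a mean of at least 1 FPKM, after a check on simulated data. The log scale understates changes of low genes. Depth was estimated from the step of low values in genes with a single GENCODE transcript of at least 1000 nt and covers counting error only. All 30 genes are named, and of each related list up to 3 passing genes of largest change, except a gene not reported here. Genes and lists were chosen with earlier results of these data known. Alternatives were other pseudocounts, filters and scalings, no trend, a replicate block and leaving out libraries. Sequences came from RefSeq tables through Python 3.11.15.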

Additional observations from a re-analysis of the deposited data

How the results depend on the processing

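Of the 30 genes, 22 kept the same call under all 17 alternatives, though SREBF2 and HSD17B7 among them, which never passed, changed direction. The genes whose call changed are EBP, DHCR7, GGPS1, SOAT1, SCAP, NR1H3, PMVK and TM7SF2. The count of genes that fell was 18 to 22 over the alternatives. The median log2 fold change of the 30 genes moved to -0.47 with a pseudocount of 5, to -0.35 with libraries rescaled to a sum of 1000000, to -0.38 with that rescaling without small RNA genes, and to -0.47 without both ZsGreen-positive libraries 2 and 3, an alternative added after seeing the data. Leaving out 1 library at a time gave 2 to 5 genes that rose and a median of -0.55 to -0.50. The number that rose was 2 without ZsGreen-positive replicate 1 and without ZsGreen-negative replicate 1 or 2. Over all tested genes it gave 2975 to 3762 higher and 2962 to 3816 lower. The labels do not state whether replicate numbers pair the libraries. Deviations from the group means of same-numbered libraries correlated at -0.03 to -0.02 across genes. With 3 libraries to a mean these deviations constrain one another, so they do not settle it. With the replicate block 22 of the 30 genes fell and 4 rose, with 3433 genes higher and 3482 lower in all. Any batch running along with group membership cannot be told apart from it. Depth could not be estimated for ZsGreen-positive replicates 2 and 3, which limits the genes of lowest level there.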
